A study of Rattus norvegicus with 9 samples.

Results

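The nuclear receptors and hepatocyte nuclear factors that set the liver's gene expression programme were followed in rat liver RNA. They are Hnf4a, Foxa2, Onecut1, Nr1h3, Nr1h4, Nr1i2, Nr1i3, Rxra and Ppara, 9 of the 10411 genes that the array's annotation names through a probe set with a single symbol. Every probe set annotated to a member was taken, which gave 11 probe sets: 2 each for Hnf4a and Onecut1 and 1 for each of the other 7 genes. Total RNA of whole liver was hybridised to 9 one-colour oligonucleotide arrays in 3 groups of 3. By their names, Burn-CLP received a burn and CLP, Sham-CLP received a sham procedure and CLP, and Sham-Sham received sham procedures only. The abbreviation CLP is left unexplained in the labels. In rodent work it is used for cecal ligation and puncture, a model of abdominal sepsis. The labels state neither strain, sex, age nor the time of collection. They do not say that the 3 arrays of a group are separate animals, and a p-value here covers no more than array-to-array spread, part of which can be technical. All 3 groups share the liver as the tissue, and Sham-CLP and Burn-CLP share CLP.

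The identity of a hepatocyte rests on a small circuit of transcription factors. HNF4A, FOXA2 and ONECUT1 (HNF6) bind each other's regulatory DNA and that of genes for plasma proteins, apolipoproteins and metabolic enzymes. On this base, nuclear receptors read the chemical state of the cell. FXR (Nr1h4) is the bile acid sensor, LXRα (Nr1h3) senses oxysterols, PXR (Nr1i2) and CAR (Nr1i3) sense drugs and other foreign compounds, and PPARα (Ppara) responds to fatty acids and drives their oxidation. RXRα (Rxra) is the partner with which these 5 receptors form dimers on DNA. HNF4A binds as a homodimer.

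The ONECUT core was found in a promoter of 2 of 7 members, for Hnf4a at the upstream start only. These 2 promoters are shown because ONECUT1, whose family recognises the motif, is itself a member. The sequences are RefSeq's on GRCr8 and run from 250 bases before to 50 bases after an annotated start, on the strand of the gene. A promoter was available for those 7 of the 9 members. Capitals mark the core recognised by ONECUT factors, ATCAAT or its reverse complement ATTGAT.
Hnf4a, upstream start, chr3:172605970-172606269 (plus strand): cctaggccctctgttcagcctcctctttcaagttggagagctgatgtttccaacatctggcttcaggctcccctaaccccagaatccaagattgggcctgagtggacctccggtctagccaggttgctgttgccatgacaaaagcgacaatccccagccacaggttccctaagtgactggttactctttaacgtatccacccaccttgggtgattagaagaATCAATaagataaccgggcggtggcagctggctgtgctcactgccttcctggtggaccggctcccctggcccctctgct
Foxa2, chr3:155927459-155927758 (minus strand): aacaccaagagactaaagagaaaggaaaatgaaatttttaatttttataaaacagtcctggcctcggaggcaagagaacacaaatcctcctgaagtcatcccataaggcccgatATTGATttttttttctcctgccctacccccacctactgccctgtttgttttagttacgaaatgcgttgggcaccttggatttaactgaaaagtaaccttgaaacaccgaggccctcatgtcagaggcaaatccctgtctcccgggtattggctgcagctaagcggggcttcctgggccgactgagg
In the Hnf4a promoter the ONECUT core lies at bases 222 to 227. In the Foxa2 promoter the ONECUT core lies on the reverse strand at bases 115 to 120. On both strands, the ONECUT core was found in 8.06% of the 33469 rat promoters of this length. Also searched on both strands were the nuclear receptor hexamer AGGTCA (16.2% of promoters), the FOXA core TGTTTAC (3.78%) and the HNF4 core CAAAGTC (4.61%), and neither of the promoters shown holds one. The FOXA core was found in 1 other member promoter, that of Nr1h3, on the reverse strand at bases 55 to 61. The downstream Hnf4a promoter in the table held none of these motifs, and which Hnf4a start was used in these livers was not tested. No matches overlapped. A match describes the letters only.

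Signals are given in quantile-normalized units of the deposited intensity, and a signal of 64.3, the 20th percentile of all values, was used as a floor below which values have no order. All 11 member probe sets passed the filter of at least 3 of 9 arrays above the floor, and 10 of them lay above it on all 9 arrays. Signals of different probe sets are not compared with each other. In the paragraphs that follow, a change is a difference of mean log2 signals with its standard error (SE), and an adjusted p is limma's with Benjamini-Hochberg adjustment over all 13535 probe sets tested. The 9 arrays correlated with one another at mean values between 0.937 and 0.958, except Sham-Sham 1 at 0.907, and the members' differences from Sham-Sham that it moved most are also given without it. Hepatocyte markers were at high signal on every array, with 7 of 8 on the array and a summed signal of 169670 to 181599 in Burn-CLP, 182518 to 191052 in Sham-CLP and 185130 to 185650 in Sham-Sham.

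The bile acid receptor Nr1h4 had the smallest p of the 11 probe sets in both comparisons of Burn-CLP with another group, with a lower signal in all 3 Burn-CLP arrays. No member passed the threshold of an adjusted p under 0.05 in any comparison, so the values that follow are measured differences and none is a called change. In Burn-CLP against Sham-Sham 0 of 11 passed, where 0.746% of all probe sets tested did, and 1 of 11 had an unadjusted limma p under 0.05, where 19.9% of all did. In Sham-CLP against Sham-Sham 0 of 11 passed (0.0591% of all) and 1 of 11 had an unadjusted p under 0.05 (11.7% of all). In Burn-CLP against Sham-CLP 0 of 11 passed (0.0148% of all) and 1 of 11 had an unadjusted p under 0.05 (9.09% of all). With both CLP groups averaged against Sham-Sham 0 of 11 passed (0.355% of all) and 1 of 11 had an unadjusted p under 0.05 (18.4% of all), and the limma F test over the 3 groups passed 0 of 11 (0.148% of all), with 1 of 11 at an unadjusted p under 0.05 (16% of all). The median member difference was 0.14 in Burn-CLP minus Sham-Sham, beside 0.01 over all probe sets. It was 0.17 beside 0 in Sham-CLP minus Sham-Sham, and -0.10 beside 0.02 in Burn-CLP minus Sham-CLP. These member medians were -0.06 and 0.01 in the comparisons with Sham-Sham without Sham-Sham 1, and 0.02 in Burn-CLP minus Sham-CLP without Burn-CLP 2. With each single array left out in turn they ran from -0.06 to 0.45, from 0.01 to 0.25 and from -0.29 to 0.02 in the same order.

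**Figure D1:**
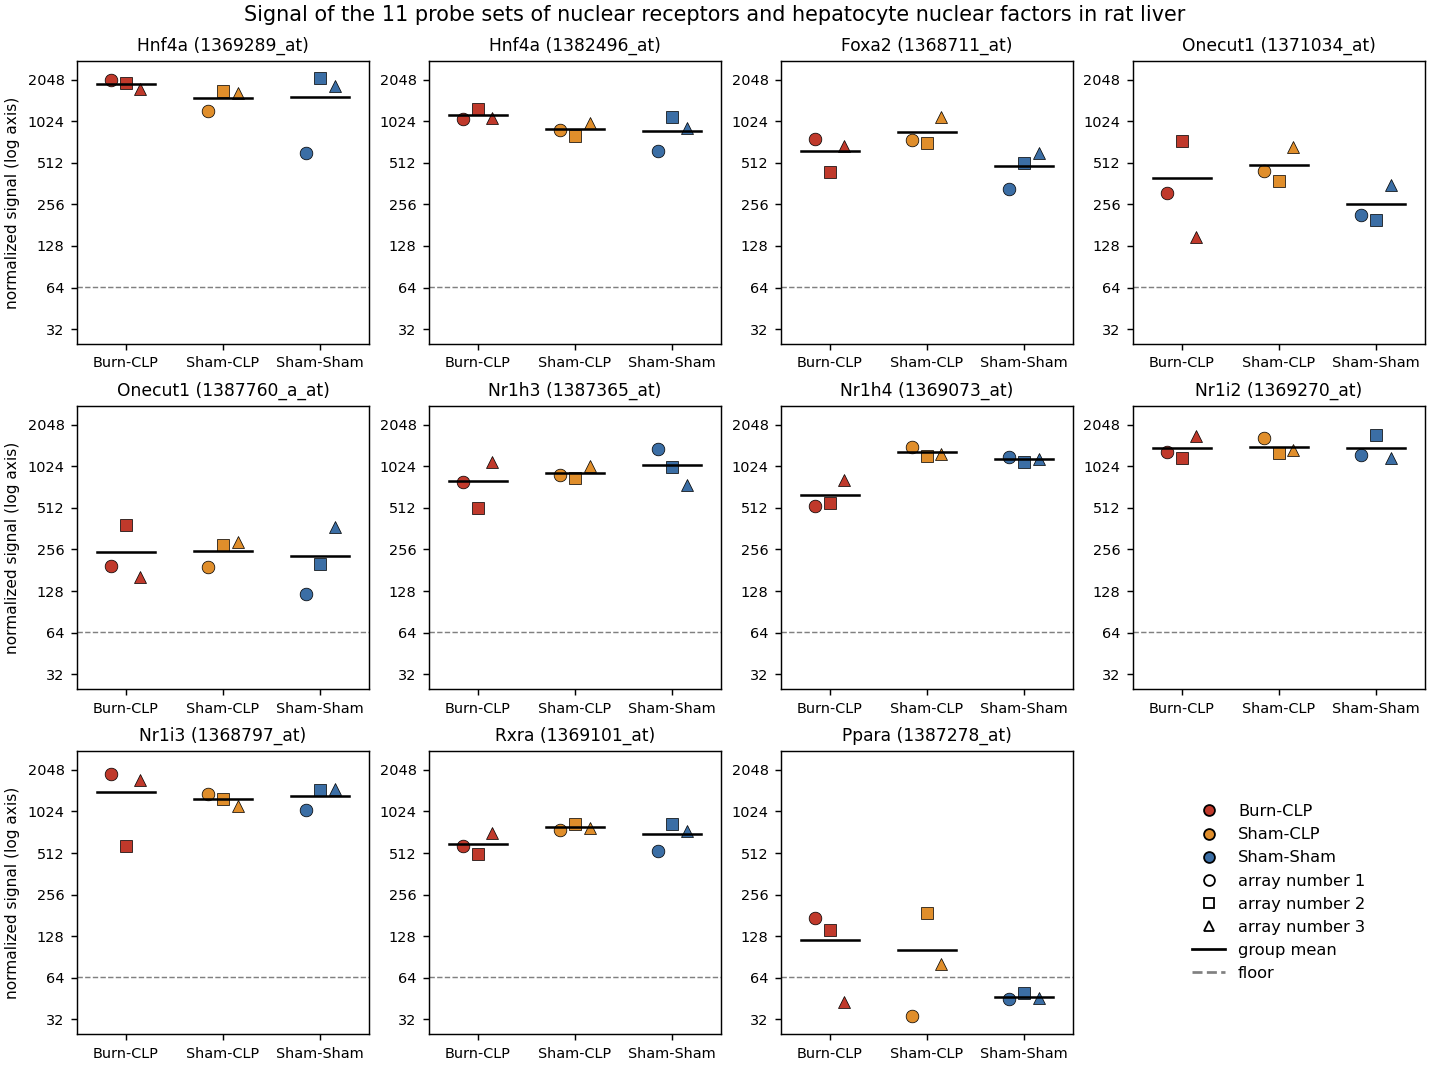
Normalized signal (log axis) of the 11 member probe sets in each of 9 arrays, by group. Points are arrays, with the shape giving the array number within its group, black bars are group means and the dashed line is the floor at 64.3. The 3 Burn-CLP points of Nr1h4 lie below all 6 others, and Sham-Sham 1 is the low point of both Hnf4a panels.

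Nr1h4 (probe set 1369073_at) encodes FXR, the receptor that represses bile acid synthesis and switches on bile acid export when bile acids accumulate. Its signal was 531, 559.9 and 823 in the 3 Burn-CLP arrays, 1408, 1223 and 1269.7 in Sham-CLP, and 1201, 1106 and 1167 in Sham-Sham. The 3 Burn-CLP arrays lay below all 6 others, with Burn-CLP 3 the nearest to them, and the 3 Sham-CLP arrays lay above all 3 Sham-Sham arrays. The mean signal was 638 ± 161 in Burn-CLP, 1300.3 ± 96.5 in Sham-CLP and 1158 ± 47.8 in Sham-Sham (SD, n = 3 each). Burn-CLP minus Sham-CLP came to -1.05 ± 0.20 on the log2 scale (SE; 95% interval -1.49 to -0.61; adjusted p = 0.179), and by p this was rank 26 of 13535 probe sets. Burn-CLP minus Sham-Sham came to -0.89 ± 0.20 (interval -1.33 to -0.45; adjusted p = 0.0687; rank 237). Both comparisons use the same 3 Burn-CLP arrays. The difference of Sham-CLP from Sham-Sham was 0.17 ± 0.20 (interval -0.27 to 0.60; adjusted p = 0.753), and the F test gave an adjusted p of 0.0893.

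The adjusted p of Nr1h4 moved with the settings and with single arrays left out. Without Burn-CLP 3, the highest of the Burn-CLP arrays, the difference was -1.09 against Sham-Sham with an adjusted p of 0.0276. Against Sham-CLP it was -1.25 with an adjusted p of 0.0354. Over 18 alternatives the difference lay between -1.09 and -0.77 against Sham-Sham and between -1.25 and -0.94 against Sham-CLP. The adjusted p was under the threshold in 2 of 18 against Sham-Sham, the other being the fit with a variance trend (0.0313), and in 1 of 18 against Sham-CLP. In other alternatives it rose as high as 0.221 against Sham-Sham and 0.598 against Sham-CLP. Fewer FXR-expressing cells and less RNA per cell cannot be told apart in whole liver. The median difference of the 7 hepatocyte markers tested was -0.03 against Sham-Sham and -0.11 against Sham-CLP. Their summed signal was lower on every Burn-CLP array (169670 to 181599) than on any array of Sham-CLP (182518 to 191052) or Sham-Sham (185130 to 185650). The hepatocyte markers did not all follow their sum. Ttr, Apoc3 and Ahsg were lower on every Burn-CLP array than on any Sham-Sham array. Alb, Serpina1, Fgb and Apoa1 overlapped between these 2 groups. The part of hepatocyte content in the Nr1h4 difference was not tested.

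**Figure D2:**
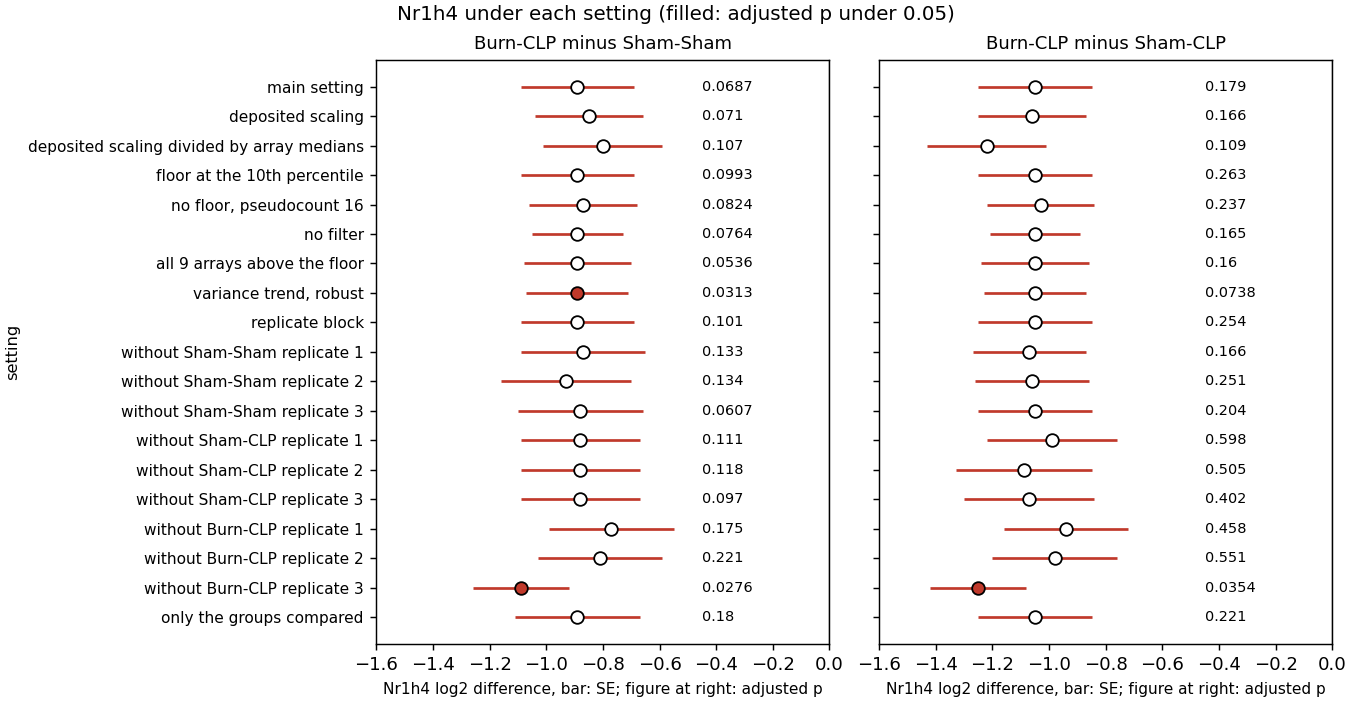
Log2 difference of Nr1h4 in Burn-CLP against Sham-Sham and against Sham-CLP under the main setting and 18 alternatives. Bars are the SE, numbers at the right are adjusted p-values, and filled points have an adjusted p under 0.05. Every point lies between -1.25 and -0.77, and 3 are filled.

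The heterodimer partner Rxra (1369101_at) had a signal of 580.1, 506 and 713 in Burn-CLP, 758, 829 and 783 in Sham-CLP, and 526, 836 and 737 in Sham-Sham. The Burn-CLP arrays lay below all 3 Sham-CLP arrays, and they overlapped Sham-Sham through the low value of Sham-Sham 1. Burn-CLP minus Sham-CLP was -0.41 ± 0.21 (adjusted p = 0.606) and Burn-CLP minus Sham-Sham was -0.21 ± 0.21 (adjusted p = 0.604), or -0.41 without Sham-Sham 1. Sham-CLP differed from Sham-Sham by 0.20 ± 0.21 (adjusted p = 0.722), or 0.01 without Sham-Sham 1.

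For the other 4 receptors the groups overlapped in every comparison. The xenobiotic sensor Nr1i2 (1369270_at) read 1300.4, 1174 and 1714 in Burn-CLP, 1641, 1287 and 1341 in Sham-CLP, and 1241, 1723 and 1185 in Sham-Sham. No group stood above or below another. Its differences were 0.02 in Burn-CLP minus Sham-Sham (adjusted p = 0.975), 0.05 in Sham-CLP minus Sham-Sham (adjusted p = 0.94) and -0.04 in Burn-CLP minus Sham-CLP (adjusted p = 0.977), each with an SE of 0.22. The 95% interval of Burn-CLP minus Sham-Sham ran from -0.47 to 0.51.

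Its relative Nr1i3 (1368797_at), which shares many target genes with it, read 1924, 573 and 1734 in Burn-CLP, 1379, 1271 and 1128 in Sham-CLP, and 1055, 1457 and 1482 in Sham-Sham. Burn-CLP 2 was the lowest array of all and the other 2 Burn-CLP arrays were the highest of all. The difference of -0.08 ± 0.40 in Burn-CLP minus Sham-Sham (adjusted p = 0.927) became 0.47 without Burn-CLP 2, and that of -0.02 ± 0.40 in Burn-CLP minus Sham-CLP (adjusted p = 0.996) became 0.54. Sham-CLP differed from Sham-Sham by -0.07 ± 0.40 (adjusted p = 0.958).

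The oxysterol receptor Nr1h3 (1387365_at) read 788, 515 and 1102 in Burn-CLP, 882, 848 and 1033 in Sham-CLP, and 1364, 1017 and 748.5 in Sham-Sham. The highest and the lowest Burn-CLP array spanned all 3 Sham-CLP arrays. The differences were -0.40 ± 0.30 in Burn-CLP minus Sham-Sham (adjusted p = 0.472), -0.14 ± 0.30 in Sham-CLP minus Sham-Sham (adjusted p = 0.873) and -0.26 ± 0.30 in Burn-CLP minus Sham-CLP (adjusted p = 0.863). Without Sham-Sham 1, the highest of the 9 arrays, the first 2 were -0.19 and 0.07.

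The fatty acid receptor Ppara (1387278_at) was the only member with arrays below the floor. It read 174, 142 and 42.3 in Burn-CLP, 33.5, 188.5 and 80.2 in Sham-CLP, and 44.5, 49.2 and 45.5 in Sham-Sham. Burn-CLP and Sham-CLP each had 2 of 3 arrays above the floor and Sham-Sham had 0 of 3, so the order within Sham-Sham carries no information. With values below the floor set to it, Burn-CLP minus Sham-Sham was 0.86 ± 0.44 (adjusted p = 0.306). Sham-CLP minus Sham-Sham was 0.62 ± 0.44 (adjusted p = 0.582), and Burn-CLP minus Sham-CLP was 0.23 ± 0.44 (adjusted p = 0.925). These fitted values depend on the floor in both groups compared and are no bounds.

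Among the hepatocyte nuclear factors, Hnf4a, the central activator of hepatocyte genes, was measured by 2 probe sets. Probe set 1369289_at read 2049.5, 1929.6 and 1763 in Burn-CLP, 1223, 1693 and 1642 in Sham-CLP, and 604, 2122 and 1860.4 in Sham-Sham. Probe set 1382496_at read 1073, 1253 and 1083 in Burn-CLP, 889, 804 and 989.5 in Sham-CLP, and 624, 1096 and 915 in Sham-Sham. On both, the 3 Burn-CLP arrays lay above the 3 Sham-CLP arrays, and Sham-Sham 1 was the lowest of all 9 arrays.

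Burn-CLP minus Sham-CLP was 0.35 on both Hnf4a probe sets, with an SE of 0.41 on 1369289_at (adjusted p = 0.868) and 0.22 on 1382496_at (adjusted p = 0.697). Burn-CLP minus Sham-Sham was 0.52 ± 0.41 on 1369289_at (adjusted p = 0.502) and 0.41 ± 0.22 on 1382496_at (adjusted p = 0.335). Without Sham-Sham 1 these 2 values were -0.06 and 0.18. The Burn-CLP difference of 1369289_at from Sham-Sham thus rested on that array. That of 1382496_at was smaller without it and kept its sign. Sham-CLP minus Sham-Sham was 0.17 ± 0.41 on 1369289_at (adjusted p = 0.888) and 0.06 ± 0.22 on 1382496_at (adjusted p = 0.933), and -0.40 and -0.17 without Sham-Sham 1.

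Foxa2 (1368711_at), a pioneer factor that opens liver chromatin and acts in the fasting response, read 759.5, 436 and 683 in Burn-CLP, 753, 709 and 1101 in Sham-CLP, and 332.5, 515 and 603 in Sham-Sham. All 3 Sham-CLP arrays lay above all 3 Sham-Sham arrays, and Burn-CLP overlapped both. Sham-CLP minus Sham-Sham was 0.84 ± 0.30 (interval 0.17 to 1.5; unadjusted p = 0.0193; adjusted p = 0.361). Burn-CLP differed from Sham-Sham by 0.38 ± 0.30 (adjusted p = 0.498) and Burn-CLP minus Sham-CLP was -0.46 ± 0.30 (adjusted p = 0.699). Without Sham-Sham 1, the lowest of the 9, the Foxa2 differences from Sham-Sham were 0.13 in Burn-CLP and 0.60 in Sham-CLP.

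Onecut1, which activates Foxa2 and Hnf4a in the embryonic liver and is a growth hormone responsive factor in rat liver, also had 2 probe sets. Probe set 1371034_at read 308, 738 and 148 in Burn-CLP, 444, 378.5 and 663 in Sham-CLP, and 215, 197 and 357 in Sham-Sham. Probe set 1387760_a_at read 196, 383 and 163 in Burn-CLP, 189.9, 276 and 289 in Sham-CLP, and 121, 203 and 370.3 in Sham-Sham. On the first probe set Sham-CLP lay above Sham-Sham on all arrays, and on the second the groups overlapped.

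Sham-CLP minus Sham-Sham was 0.96 ± 0.51 on Onecut1 probe set 1371034_at (adjusted p = 0.49) and 0.24 ± 0.43 on 1387760_a_at (adjusted p = 0.842). Burn-CLP minus Sham-Sham was 0.39 ± 0.51 on 1371034_at (adjusted p = 0.701) and 0.14 ± 0.43 on 1387760_a_at (adjusted p = 0.882). Burn-CLP minus Sham-CLP was -0.58 ± 0.51 on 1371034_at (adjusted p = 0.797) and -0.10 ± 0.43 on 1387760_a_at (adjusted p = 0.970). Without Sham-Sham 1, the differences of 1387760_a_at from Sham-Sham were -0.25 in Burn-CLP and -0.15 in Sham-CLP. The Burn-CLP arrays of 1371034_at had a coefficient of variation of 76.7%, the largest of any group among the 10 member probe sets above the floor on all arrays. Without Burn-CLP 2 the value of 1371034_at was -0.21 against Sham-Sham and -1.17 against Sham-CLP.

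**Figure D3:**
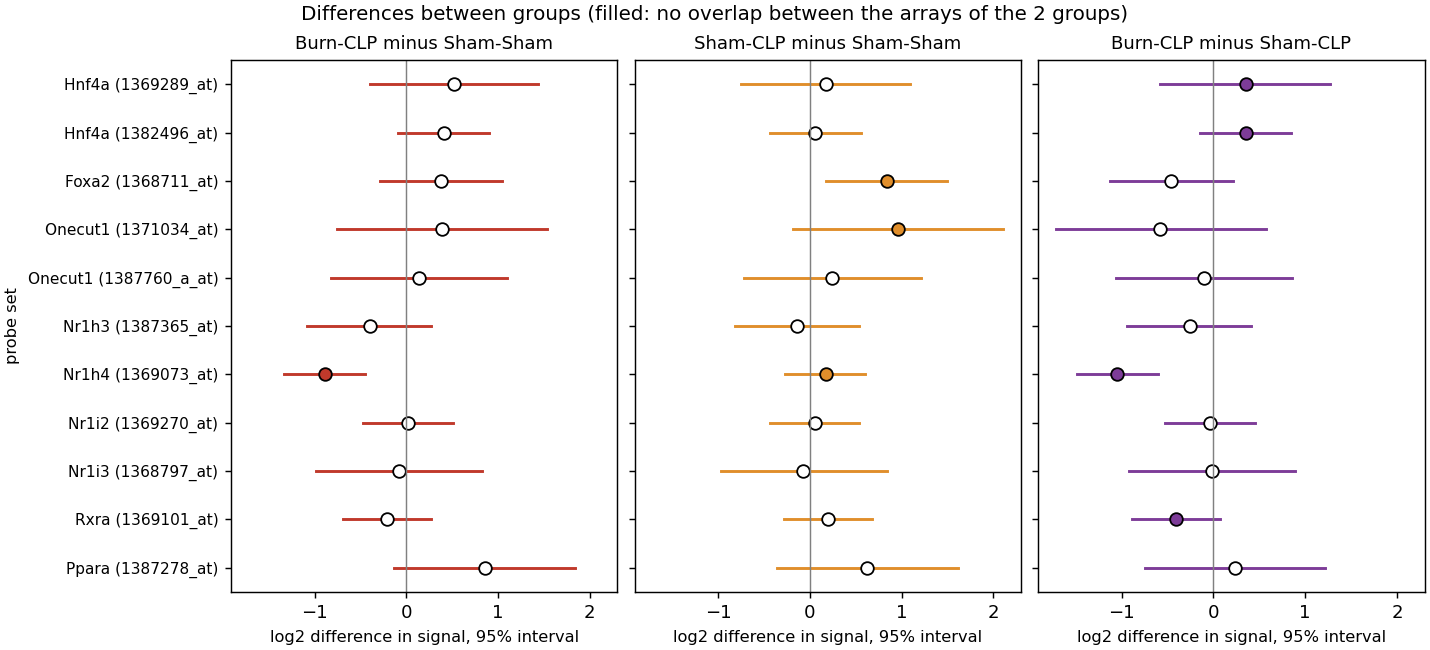
Log2 difference with its 95% interval for the 11 member probe sets in 3 comparisons. Filled points mark probe sets whose arrays do not overlap between the 2 groups. Nr1h4 is filled in all 3 panels, and its intervals in Burn-CLP minus Sham-Sham (-1.33 to -0.45) and Burn-CLP minus Sham-CLP (-1.49 to -0.61) lie below 0.

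Groups without overlap were 1 of 11 in Burn-CLP against Sham-Sham, where 21.5% of all probe sets did not overlap and 10.5% were lower without overlap, 3 of 11 in Sham-CLP against Sham-Sham (16.7% of all) and 4 of 11 in Burn-CLP against Sham-CLP (18.8% of all). With both CLP groups set against Sham-Sham it was 0 of 11 (7.56% of all). The 3 in Sham-CLP were Nr1h4, Foxa2 and Onecut1 1371034_at, all higher, where 8.1% of all probe sets were higher without overlap. The 4 in Burn-CLP against Sham-CLP were Nr1h4 and Rxra, lower (9.22% of all), and both Hnf4a probe sets, higher (9.61% of all). With 11 probe sets of 9 genes, nothing particular to the members is read from these counts.

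The paired probe sets allowed a check of the measurement. The 2 Hnf4a probe sets correlated over the 9 arrays with Pearson's r of 0.85 (exact permutation p = 0.00842, adjusted p = 0.0337 over 4 tests) and Spearman's rho of 0.78 (exact permutation p = 0.0172, adjusted p = 0.0344), and r was 0.54 without Sham-Sham 1 and Sham-CLP 1. The 2 Onecut1 probe sets correlated with r of 0.73 (exact permutation p = 0.0287, adjusted p = 0.0383) and rho of 0.67 (exact permutation p = 0.0589, adjusted p = 0.0589), and r was 0.57 without Burn-CLP 2 and Burn-CLP 3. The p-values are two-sided, and the permutations ran over all 9 arrays without regard to group. Differences between groups and single outlying arrays therefore count in them. Probe sets of one gene on the same array share its RNA and its normalization.

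The genes whose signals ran most like each member over the 9 arrays were named by Pearson's r among 11110 named probe sets, as a description. Nr1h4 ran most like G0s2, an inhibitor of fat breakdown (r = 0.98, with 7 of 9 arrays above the floor), Ppa2, a mitochondrial pyrophosphatase (0.97), and the chemokine Cxcl12 (0.97). Rxra ran most like Fam149b1 (0.98), Tut7 (0.96) and the steroid hydroxylase Cyp17a1 (0.95). Hnf4a 1369289_at ran most like the integrin subunit Itgb1, the kinase Wnk1 and Entr1 (0.98 each), which became 0.91, 0.93 and 0.89 without Sham-Sham 1. Foxa2 ran most like Nab2 (0.94), Fat1 (0.93) and the cytokine gene Il33 (0.93), and Onecut1 1371034_at most like the threonyl-tRNA synthetase Tars1 (0.95), Srpra (0.92) and Zfyve27 (0.91). Nr1h3 ran most like Acsm5, Syngr1 and Acbd5 (0.95 each), Nr1i2 most like Kcnk12 (0.93), Mical2 (0.93) and Rsrp1 (0.89), Nr1i3 most like Dnajc12 (0.92), Tmem14c (0.92) and Dipk2a (0.91), and Ppara most like Zdhhc2 (0.97), Rabepk (0.96) and Dlx5 (0.96). Kcnk12, Zdhhc2 and Rabepk each had 5 of 9 arrays above the floor, and Ppara itself had 4 of 9. Their correlations therefore rest in part on arrays set to the same floor value. The 9 points share their groups, their arrays and the normalization.

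The targets of the receptors were then counted, with the brightest probe set of each gene. FXR induces Nr0b2 (SHP), a repressor without a DNA-binding domain. Its signal was 2159.6, 514.5 and 853.9 in Burn-CLP, 344, 333 and 656 in Sham-CLP, and 1128, 1487 and 805 in Sham-Sham. All 3 Sham-CLP arrays lay below all 3 Sham-Sham arrays, and Burn-CLP overlapped both, with Burn-CLP 1 the highest of the 9. Sham-CLP minus Sham-Sham was -1.39 ± 0.49 (adjusted p = 0.36), Burn-CLP minus Sham-Sham -0.17 ± 0.49 (adjusted p = 0.876) and Burn-CLP minus Sham-CLP 1.22 ± 0.49 (adjusted p = 0.503), the last being 0.65 without Burn-CLP 1.

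Of the 6 FXR targets tested, 0 passed in any of the 4 comparisons, with 1 higher and 1 lower at an unadjusted p under 0.05 in Burn-CLP against Sham-Sham and a median of -0.10, which ran from -0.34 without Burn-CLP 1 to 0.08 without Burn-CLP 3. The bile salt export pump Abcb11 differed by -0.03 ± 0.19 in Burn-CLP minus Sham-Sham (adjusted p = 0.936) and 0.18 ± 0.19 in Burn-CLP minus Sham-CLP (adjusted p = 0.843). The phospholipid transporter Abcb4 differed by -0.25 ± 0.31 (adjusted p = 0.669) and 0.57 ± 0.31 (adjusted p = 0.616) in the same order. Of the 4 genes of bile acid synthesis and uptake that FXR represses through SHP, 0 passed, with a median of -0.22 in Burn-CLP minus Sham-Sham and -0.34 in Burn-CLP minus Sham-CLP. With single arrays left out these medians ran from -0.33 to -0.05 (the value without Burn-CLP 2) and from -0.58 without Sham-CLP 3 to -0.17 without Burn-CLP 1.

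Cyp7a1, the rate-limiting enzyme of bile acid synthesis, read 2486.8, 6768 and 4091 in Burn-CLP, 8444, 7722 and 2999 in Sham-CLP, and 2608, 3555 and 2385.5 in Sham-Sham. Cyp8b1, which sets the share of cholic acid, read 3903, 12069 and 7738 in Burn-CLP, 13885, 14701 and 4843 in Sham-CLP, and 5675, 11634 and 11254 in Sham-Sham. For both genes Sham-CLP 1 and 2 were high, Sham-CLP 3 and Burn-CLP 1 were low, and the groups overlapped. For Cyp7a1 Sham-CLP minus Sham-Sham was 1.05 ± 0.45 (adjusted p = 0.414) and 0.14 ± 0.52 for Cyp8b1 (adjusted p = 0.934), or -0.20 without Sham-Sham 1. The bile acid importer Slc10a1 differed by -0.09 ± 0.23 in Burn-CLP minus Sham-Sham (adjusted p = 0.854).

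With the main settings and the brightest probe set per gene, the PPARα target list was the only one of the 9 target and regulator lists reported with a called gene. Of 25 targets tested, 1 passed in Burn-CLP against Sham-Sham, lower, where 0.421% of all probe sets were called lower, and 22 of 25 differences were negative with a median of -0.63 beside 0.01 over all probe sets. At an unadjusted p under 0.05 there were 13 lower and 0 higher, where 19.9% of all probe sets had such a p in either direction. That share applies to the other lists in this comparison too. The lists were chosen with earlier results of these data known, so their counts are no independent support. In Sham-CLP against Sham-Sham 0 of 25 passed, 6 had an unadjusted p under 0.05 (11.7% of all in either direction), all lower, and the median was -0.38. That median was -0.23 with the deposited scaling and -0.02 with arrays divided by their medians, while the median of all probe sets was -0.08 and 0.11 in those settings. In Burn-CLP against Sham-CLP 0 passed, 5 had an unadjusted p under 0.05 (9.09% of all in either direction), 1 higher and 4 lower, and the median was -0.15. With single arrays left out the 3 medians ran from -0.80 to -0.51, from -0.47 to -0.23 (without Sham-Sham 3) and from -0.36 (without Burn-CLP 3) to -0.05 (without Burn-CLP 2). The list holds genes of fatty acid oxidation and lipid storage, and the signal of Ppara itself was near the floor.

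Plin2, which coats lipid droplets, was the called gene. It read 1458, 565 and 1589.9 in Burn-CLP, 2257, 2179 and 3311 in Sham-CLP, and 4965, 6812 and 5073 in Sham-Sham, so that the 3 groups did not overlap. It fell by 2.34 ± 0.37 on the log2 scale in Burn-CLP against Sham-Sham (adjusted p = 0.0341). Sham-CLP differed from Sham-Sham by -1.13 ± 0.37 (adjusted p = 0.335). Its dimmer probe set differed by -0.70 in Burn-CLP minus Sham-Sham. The call held in 9 of 18 alternatives. Among single arrays left out, it was lost without Sham-Sham 1 (adjusted p = 0.0807), Sham-Sham 2 (0.0916), Sham-CLP 1 (0.0596), Sham-CLP 2 (0.0604) and Burn-CLP 1 (0.076).

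Of the first 3 targets listed and measured, the medium-chain acyl-CoA dehydrogenase Acadm read 7000.5, 3594 and 5085 in Burn-CLP, 6186, 6861 and 8047 in Sham-CLP, and 10244, 10852 and 10439 in Sham-Sham. The Burn-CLP and Sham-CLP arrays all lay below Sham-Sham. Burn-CLP differed from Sham-Sham by -1.06 ± 0.24 (adjusted p = 0.0707). Cpt1a, the gate of fatty acid entry into mitochondria, differed by 0.13 ± 0.27 (adjusted p = 0.82) and by -0.12 without Sham-Sham 1, and the fatty acid hydroxylase Cyp4a1 by -0.20 ± 0.19 (adjusted p = 0.564). Another probe set of the list, 1375247_at of the monoglyceride lipase Mgll, was not the brightest of its gene and is named after its values were seen. It read 24.9, 10.9 and 21 in Burn-CLP, all below the floor, 158, 59.8 and 179 in Sham-CLP, and 473, 261 and 411 in Sham-Sham. It was at least 5.75-fold lower in Burn-CLP than in Sham-Sham (adjusted p = 0.025). The brightest probe set of Mgll differed by -1.98 ± 0.43 (adjusted p = 0.0681). The remaining Mgll probe sets did not share a drop of this size. They differed by -0.29 (mean signal 331) and -0.04 (mean signal 55.8) in the same comparison. All 3 Burn-CLP values of 1375247_at were set to the floor, so that group added no spread to the SE behind its adjusted p. The call of 1375247_at held in 13 of 17 alternatives. It was lost with no filter (adjusted p = 0.0621) and without Sham-Sham 1 (adjusted p = 0.0807), Burn-CLP 1 (0.0863) or Burn-CLP 2 (0.105).

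**Figure D4:**
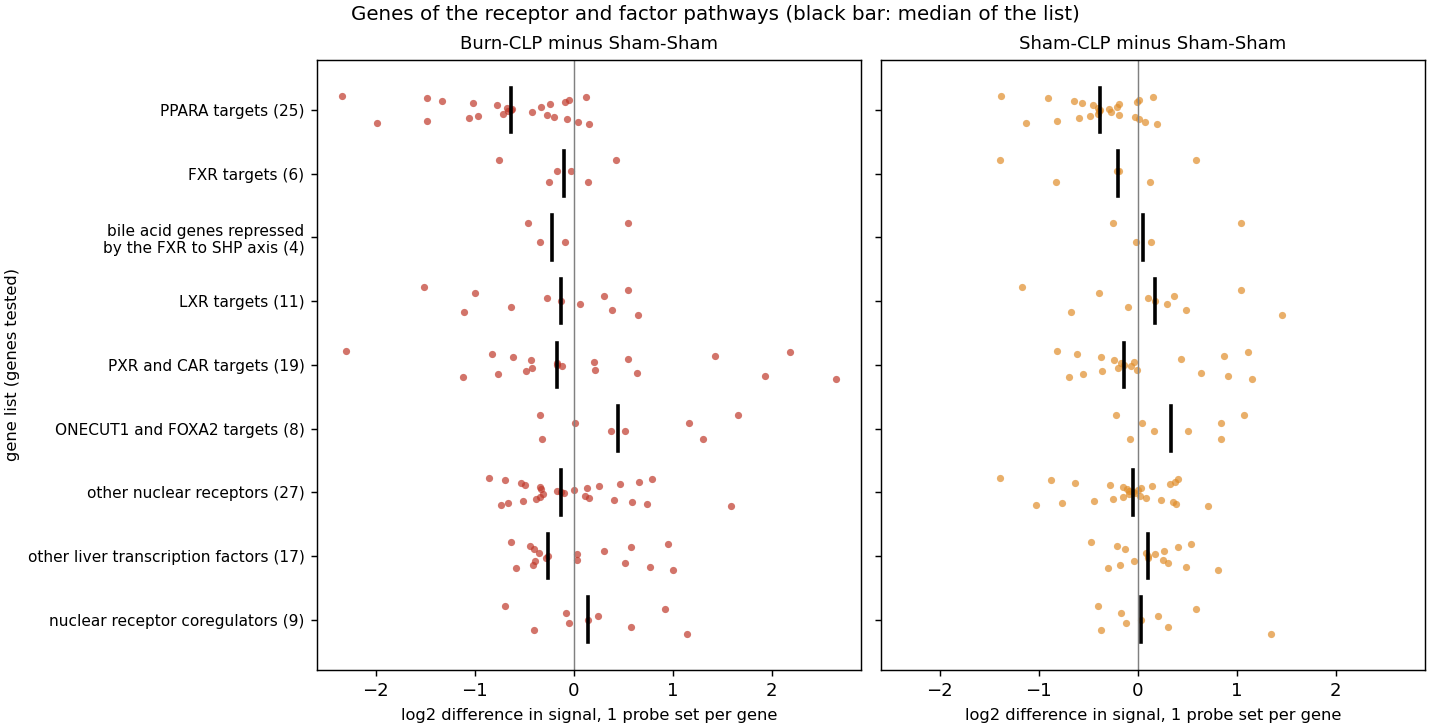
Log2 difference in signal of every gene tested in each of the 9 target and regulator lists, in Burn-CLP minus Sham-Sham and Sham-CLP minus Sham-Sham. Each point is the brightest probe set of a gene and black bars are list medians. The PPARA target median is -0.63 on the left and -0.38 on the right.

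Of 11 LXR targets, 0 passed in any comparison, and the medians were -0.13 in Burn-CLP minus Sham-Sham, 0.18 in Sham-CLP minus Sham-Sham and -0.33 in Burn-CLP minus Sham-CLP. The first was 0.17 without Burn-CLP 2 and 0.11 without Sham-Sham 3, the second was 0.08 without Sham-Sham 2, and the third was -0.07 without Sham-CLP 3. The lipogenic factor Srebf1 read 509, 601 and 1073 in Burn-CLP, 1443, 1381 and 1673.5 in Sham-CLP, and 1563, 959 and 804 in Sham-Sham. All 3 Burn-CLP arrays lay below all 3 Sham-CLP arrays, with a difference of -1.11 ± 0.32 (adjusted p = 0.366). The sterol transporter Abcg1 was 0.65 ± 0.20 in Burn-CLP minus Sham-Sham (adjusted p = 0.138), and its other 2 probe sets gave 0.17 and -0.43. Abcg5, which exports sterols into bile, was -1.0 ± 0.49 (adjusted p = 0.285), or -0.51 without Burn-CLP 2.

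Of 19 PXR and CAR targets, 0 passed in any comparison, with 4 higher and 5 lower at an unadjusted p under 0.05 in Burn-CLP against Sham-Sham and a median of -0.17, which was -0.03 without Burn-CLP 2. The drug-metabolising enzymes Cyp3a23-3a1 and Cyp3a2 differed there by -0.17 ± 0.30 (adjusted p = 0.775) and -0.17 ± 0.18 (adjusted p = 0.62), and the conjugate exporter Abcc2 by 0.22 ± 0.34 (adjusted p = 0.739). Without Sham-Sham 1 the values of Cyp3a23-3a1 and Abcc2 were -0.01 and 0.03. Cytochrome P450 families have near-identical members, and cross-hybridisation between them was not tested.

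Of 8 ONECUT1 and FOXA2 targets, 0 passed, with 3 higher and 0 lower at an unadjusted p under 0.05 and a median of 0.45 in Burn-CLP minus Sham-Sham, and 2 higher, 0 lower and a median of 0.34 in Sham-CLP minus Sham-Sham. The medians were 0.04 and 0.18 without Sham-Sham 1. The second was 0.09 without Sham-CLP 2, and the first was 0.85 without Burn-CLP 3. The list includes Hnf4a and Foxa2 themselves. Pfkfb1, the liver enzyme that sets the level of fructose 2,6-bisphosphate, read 1655, 1991 and 2037 in Burn-CLP, 1593, 1603 and 1316 in Sham-CLP, and 1069, 953 and 574 in Sham-Sham. The 3 groups did not overlap, and the differences from Sham-Sham were 1.17 ± 0.24 in Burn-CLP (adjusted p = 0.0600) and 0.84 ± 0.24 in Sham-CLP (adjusted p = 0.306). The female-predominant Cyp2c12 read 9246, 13805 and 937 in Burn-CLP, 13402, 12013 and 6812 in Sham-CLP, and 3458.5, 5700.4 and 5887 in Sham-Sham. It was higher in all 3 Sham-CLP arrays than in any Sham-Sham array, and Burn-CLP 3 was the lowest of all 9. The male-specific Cyp2c13 was -0.32 ± 0.17 in Burn-CLP minus Sham-Sham (adjusted p = 0.309).

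The neighbouring regulators showed no called gene. Of 27 other nuclear receptors 0 passed in any comparison, with 2 higher and 3 lower at an unadjusted p under 0.05 in Burn-CLP against Sham-Sham. Nr5a2 (LRH-1), which SHP represses at bile acid genes, read 569, 669 and 375 in Burn-CLP, 279, 234 and 356 in Sham-CLP, and 47.2, 212 and 388 in Sham-Sham, with Sham-Sham 1 below the floor. For Nr5a2 Burn-CLP minus Sham-Sham was 1.59 ± 0.55 (adjusted p = 0.169) and 0.26 ± 0.24 for Nr2f2 (adjusted p = 0.552). Without Sham-Sham 1 these were 0.88 for Nr5a2 and 0.00 for Nr2f2.

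Of 17 other liver transcription factors 0 passed, with 3 higher and 1 lower at an unadjusted p under 0.05 in Burn-CLP against Sham-Sham. Foxa3, another FOXA factor of adult liver, read 768, 818 and 724 in Burn-CLP, 825, 865 and 1013 in Sham-CLP, and 489.8, 449.6 and 615 in Sham-Sham. Both CLP groups lay above all 3 Sham-Sham arrays. The differences from Sham-Sham were 0.58 ± 0.18 in Burn-CLP (adjusted p = 0.139) and 0.81 ± 0.18 in Sham-CLP (adjusted p = 0.242). Foxa1 differed by 0.04 ± 0.32 (adjusted p = 0.958) and 0.54 ± 0.32 (adjusted p = 0.526) in the same order, or -0.37 and 0.13 without Sham-Sham 1, and Onecut2 by -0.35 ± 0.29 (adjusted p = 0.518) and 0.26 ± 0.29 (adjusted p = 0.737). Of 9 coregulators 0 passed, with 2 higher and 2 lower at an unadjusted p under 0.05. The corepressor Ncor1 differed by -0.05 ± 0.16 in Burn-CLP minus Sham-Sham (adjusted p = 0.894), the coactivator Ncoa1 by -0.40 ± 0.17 (adjusted p = 0.23) and Ncoa3 by 0.58 ± 0.39 (adjusted p = 0.421).

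Markers of other cells were summed on each array. The summed signal of the 6 neutrophil markers on the array, of 9 listed, was 911 to 1897 in Burn-CLP, 665 to 1034 in Sham-CLP and 644 to 822 in Sham-Sham. S100a9, the called marker among them, read 238, 788 and 662 in Burn-CLP, 166, 203 and 252 in Sham-CLP, and 21.3, 25.6 and 89.2 in Sham-Sham. It rose by 2.80 ± 0.40 in Burn-CLP against Sham-Sham (adjusted p = 0.0239). As 2 of the 3 Sham-Sham values were below the floor, this size and its SE depend on the floor. With the floor at the 10th percentile the S100a9 difference was 3.61 ± 0.56 (adjusted p = 0.0447). This call held in 12 of 17 alternatives. It was lost without Sham-Sham 1 (adjusted p = 0.0807), Sham-Sham 2 (0.0732) or Burn-CLP 2 (0.105), with no filter (0.0621) and with only the groups compared (0.0896). The other neutrophil markers did not all follow S100a9. Cybb also lay above Sham-Sham on every Burn-CLP array, while S100a8, Cxcr2, Itgam and Ncf1 overlapped between these groups. Ncf1 read 168, 287 and 188 in Burn-CLP and 343, 175 and 208 in Sham-Sham. The 8 stellate cell and fibroblast markers summed to 4369 to 5915 in Burn-CLP, 4702 to 6736 in Sham-CLP and 6580 to 7349 in Sham-Sham. The 8 macrophage markers on the array, of 11 listed, summed to 14901 to 19506 in Burn-CLP, 14352 to 17001 in Sham-CLP and 14481 to 15813 in Sham-Sham. Their median log2 difference was 0.33 in Burn-CLP minus Sham-Sham and 0.15 in Sham-CLP minus Sham-Sham, with 0 called. The 9 of 10 lymphocyte markers on the array summed to 1445 to 1564 in Burn-CLP, 1206 to 1248 in Sham-CLP and 1340 to 1889 in Sham-Sham. The Burn-CLP arrays lay above the Sham-CLP arrays in this sum and within the range of Sham-Sham. The 3 of 4 red cell markers on the array summed to 9806 to 11820 in Burn-CLP, 11334 to 12517 in Sham-CLP and 12602 to 15826 in Sham-Sham. Sums of 5 of 8 endothelial markers were 2118 to 3062 in Burn-CLP, 2198 to 2713 in Sham-CLP and 2731 to 3161 in Sham-Sham. Sham-CLP lay below Sham-Sham in both of these sums, and Burn-CLP lay below Sham-Sham in the red cell sum. The median log2 difference of the 5 endothelial markers was -0.07 in Sham-CLP minus Sham-Sham and 0.50 in Burn-CLP minus Sham-Sham. Kdr, the brightest of them in Sham-Sham, read 1768, 1364 and 1426 there and 723, 985 and 1240 in Sham-CLP. Sums of 4 of 6 bile duct markers were 1183 to 1762 in Burn-CLP, 1136 to 1253 in Sham-CLP and 1146 to 1261 in Sham-Sham, and the groups overlapped. Their part in the differences of the nuclear receptors was not tested.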

How the data were processed

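Per the labels, total RNA of rat liver was measured on 9 one-colour arrays, 3 per group. The authors deposited linear intensity values for 15923 probe sets, and the step from scans to intensities was not given in the sources used here. On all 9 arrays the trimmed mean of the deposited intensity was 500.14 to 500.17 and the median 205 to 268.1, so the arrays had been scaled to a common level. Precision is limited by the number of arrays.

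Intensities were quantile normalized, floored at the 20th percentile of all values (64.3) and log2 transformed. Control probe sets (57) were left out, and 13535 probe sets with at least 3 of 9 arrays above the floor were tested. The limma 3.58.1 functions lmFit and eBayes (R 4.3.3) were applied in 1 fit of all 9 arrays without a block, with Benjamini-Hochberg adjustment over all 13535 and a threshold of 0.05. The smallest two-sided p of an exact permutation test of 3 arrays against 3 is 0.1, and single genes were therefore tested with limma alone. Python used scipy 1.17.1. The limma fit was tested on simulated log2 values with differences planted in Burn-CLP, for Burn-CLP minus Sham-Sham only. The other steps were not run on simulated data.

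Symbols came from the platform annotation, updated to GRCr8 RefSeq through the Entrez identifier for 12748 probe sets. A single symbol was found for 12783 probe sets, several for 312 and no symbol for 2771. Members and lists were chosen with earlier results of these data known. Every member probe set is described. Of each other list the first 3 genes measured in written order and every called gene are named, at the brightest probe set. A further list of targets is not reported here. Alternatives were the deposited scaling with and without division by array medians, other floors and filters, a variance trend, the groups compared alone, the array number as a block, and each array left out.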

Additional observations from a re-analysis of the deposited data

How the results depend on the processing

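Of 44 member values (11 probe sets in 4 comparisons), 23 kept their sign in every alternative run and 2 passed the threshold in any, both of Nr1h4. Counts of member probe sets called stayed at 0, except 1 in Burn-CLP against Sham-Sham with a variance trend, and they ran from 0 to 1 with single arrays left out in Burn-CLP against Sham-Sham and in Burn-CLP against Sham-CLP. Over all probe sets, the 101 calls in Burn-CLP against Sham-Sham became 53 with the floor at the 10th percentile, 56 with a pseudocount of 16 and no floor, 317 with a variance trend and 13 with only the groups compared. The 8 calls in Sham-CLP against Sham-Sham became 4 with the deposited scaling. The 2 calls in Burn-CLP against Sham-CLP became 1 with the deposited scaling, 4 with the lower floor, 1 with the pseudocount, 4 without a filter, 0 with all 9 arrays above the floor, 10 with a variance trend and 0 with only the groups compared. The 48 calls with both CLP groups averaged became 31 with the pseudocount and 97 with a variance trend. The 20 calls of the F test became 31 with arrays divided by their medians, 40 without a filter and 127 with a variance trend. With single arrays left out the counts ran from 19 to 645 in Burn-CLP against Sham-Sham, 4 to 347 in Sham-CLP against Sham-Sham, 0 to 36 in Burn-CLP against Sham-CLP, 8 to 721 with both CLP groups averaged and 9 to 303 in the F test. The causes were not tested. Among the named genes of the lists, Pfkfb1, Nr5a2, Foxa3, Acadm and the brightest probe set of Mgll passed the threshold in at least 1 alternative.

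Arrays with the same number deviated together weakly at most (r between -0.03 and 0.08 over 9 pairs, against -0.07 to 0.04 over 18 pairs of other numbers). The range of same-number pairs lay slightly higher. The labels do not say that the numbers pair arrays, and they were not taken as pairing in the main fit. With the array number as a replicate block the counts were 59 in Burn-CLP against Sham-Sham, 4 in Sham-CLP against Sham-Sham, 0 in Burn-CLP against Sham-CLP and 17 with both CLP groups averaged. Of the member probe sets 0 were called with the block, and Nr1h4 had adjusted p-values of 0.101 against Sham-Sham and 0.254 against Sham-CLP.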
